A study of Saccharomyces cerevisiae with 14 samples.

Results

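A pair of routes that feed NAD+ synthesis in budding yeast were set against each other at the level of the transcriptome. The arrays compared were the 2 of the bna1Δ strain, which cannot complete synthesis from tryptophan, and the 2 of the tna1Δ strain, which lacks the nicotinic acid importer. They were chosen by their labels and make up 4 of the 14 arrays of the series, and no measured value entered the choice. Differences are bna1Δ minus tna1Δ on the log2 scale throughout, and errors are standard errors of the contrast.

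The strains were MATa haploids with the alleles his3D200 leu2D1 met15D0 trp1D63 ura3-167, and those alleles were present in the wild type too. The bna1Δ strain carried bna1D::kanMX4 in addition and the tna1Δ strain tna1D::kanMX4, so both deletions used the same kanMX4 marker. The npt1Δ and pnc1Δ strains of the series each held 2 arrays, as did wild type given 5 mM nicotinamide, and untreated wild type had 4 arrays in 2 pairs coded ML8 and ML1. Duplicate cultures grew in YPD, a rich medium, and were harvested in log phase for total RNA and 1 Affymetrix Yeast 2.0 array each. The labels do not say which wild-type pair belongs to which strain, and the number of separate isolates behind a deletion is not given in them.

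Yeast makes NAD+ from tryptophan through the kynurenine route, whose enzymes are encoded by the BNA genes, and from nicotinic acid and nicotinamide through salvage. BNA1 encodes 3-hydroxyanthranilate dioxygenase, an oxygen-dependent step of the kynurenine route, and TNA1 encodes the high-affinity nicotinic acid permease of the plasma membrane. Rich medium supplies nicotinic acid, so a bna1Δ cell can still use salvage and a tna1Δ cell can still use tryptophan. NAD+ is also the co-substrate of the sirtuin deacetylases, among them Sir2.

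The median signal of the 14 arrays lay between 9.75 and 9.84 (log2) over the 5498 probe sets matched to 1 S. cerevisiae gene each. The background limit, the 95th percentile of 1746 probe sets for genes that are not in the S. cerevisiae reference, lay between 2.22 and 2.26 on all arrays. Replicate arrays correlated at 0.9978 in bna1Δ and 0.9973 in tna1Δ, and arrays of the one strain with arrays of the other at 0.9931 to 0.9952 across probe sets. The ML1 wild-type arrays lay farther apart than those of bna1Δ, tna1Δ or ML8. Between the ML1 arrays 110 probe sets differed by more than 2-fold, against 12 in bna1Δ, 19 in tna1Δ and 33 in ML8. Markers of MATa cells were high in both strains, with STE2, the alpha-factor receptor gene, at 14.63 and 14.70 in bna1Δ and 14.62 and 14.66 in tna1Δ. STE3, the a-factor receptor gene of alpha cells, was at 2.55 and 2.56 in bna1Δ and 2.59 and 2.45 in tna1Δ. SAG1, another alpha-specific gene, was well above background, at 9.19 and 9.13 in bna1Δ and 9.17 and 9.13 in tna1Δ. It lay between 8.94 and 9.22 in wild type, so low signal did not hold for every alpha-specific gene. The source of the SAG1 signal was not tested.

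Each strain lacked the transcript of its own deleted gene and kept that of the other. BNA1 read 1.98 and 1.89 in bna1Δ, both below background, 9.70 and 9.54 in tna1Δ, and 9.99, 9.59, 9.47 and 9.45 in wild type. BNA1 was therefore at least 165-fold lower in bna1Δ than in tna1Δ (limma, adjusted p = 1.95e-09) and at least 166-fold lower than in wild type, while tna1Δ stood at -0.01 relative to wild type. For genes that were not deleted, fewer cells with a transcript and less of it per cell cannot be told apart in RNA from a whole culture. TNA1 read 12.67 and 12.60 in bna1Δ, 2.09 and 2.28 in tna1Δ, and 12.56, 12.61, 12.26 and 12.54 in wild type. Its difference was 10.45 ± 0.11 (95% interval 10.2 to 10.7, adjusted p = 2.51e-12), in measured values. The tna1Δ signal was at background, the first array below and the second just above its limit, so the size of this difference depends on the background signal. The bna1Δ strain stood 0.14 above wild type in TNA1.

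**Figure D1:**
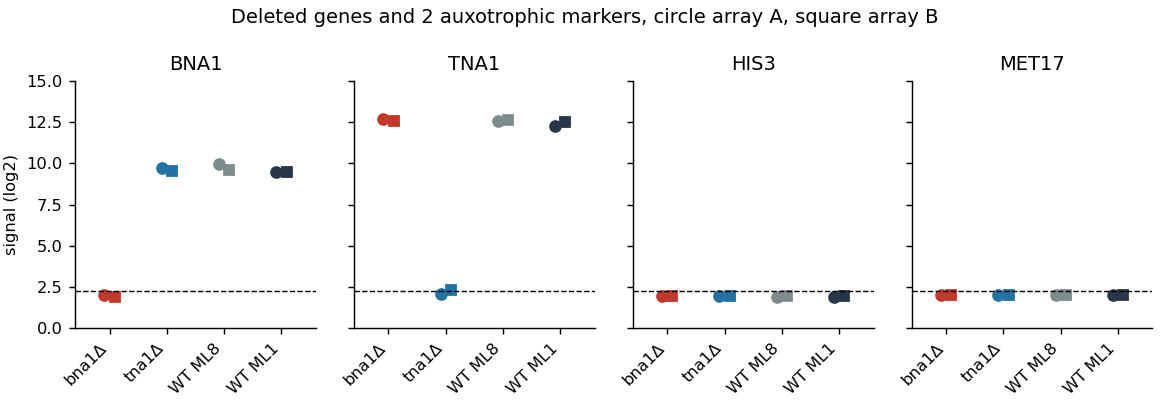
Signal (log2) of BNA1, TNA1, HIS3 and MET17 on the arrays of bna1Δ, tna1Δ and the wild-type pairs ML8 and ML1, with 1 point an array and the highest background limit as a dashed line. BNA1 is below the line in bna1Δ alone, TNA1 is at it in tna1Δ alone, and HIS3 and MET17 are below it in every group shown.

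Genes beside the deletions were at similar levels in both strains. MDE1, the measured gene on one side of BNA1, differed by -0.17 ± 0.14 and GEA1 on the other side by -0.02 ± 0.12. RAD2 and APL6, which flank TNA1, differed by 0.05 ± 0.20 and 0.04 ± 0.13. None of the 4 neighbours passed the test. The shared marker alleles read alike: HIS3 lay between 1.91 and 1.93 and MET17, the gene of the met15D0 allele, between 1.98 and 1.99 on all arrays of bna1Δ, tna1Δ and wild type, below background. Although the labels list leu2D1 and ura3-167, LEU2 read 14.04 and 14.09 in bna1Δ and 14.16 and 14.24 in tna1Δ, and URA3 read 11.86 and 11.91 in bna1Δ and 11.94 and 12.03 in tna1Δ. TRP1 had no matched probe set.

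Across the genome, the deleted genes were the 2 of 5498 probe sets that passed the test between the strains (0.0364%, adjusted p under 0.05), TNA1 higher in bna1Δ (0.0182%) and BNA1 lower (0.0182%). At an unadjusted p under 0.05 there were 324 probe sets (5.89%), of which 234 were higher (4.26%) and 90 lower (1.64%) in bna1Δ. The median difference over all probe sets was 0.049, and the middle of the distribution, from its 5th to its 95th percentile, ran from -0.35 to 0.30. Against wild type, 1 probe set passed in bna1Δ (0.0182%), BNA1, and 1 in tna1Δ (0.0182%), TNA1. At an unadjusted p under 0.05, 172 probe sets (3.13%) differed in bna1Δ, 114 higher (2.07%) and 58 lower (1.05%), and 197 (3.58%) in tna1Δ, 57 higher (1.04%) and 140 lower (2.55%). These comparisons share the 4 wild-type arrays.

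With 2 arrays a strain, the 95% interval of a difference reached a median of 0.27 to either side of the estimate, with a 90th percentile of 0.58. The interval lay inside 2-fold in either direction for 5127 probe sets (93.3%) and inside 1.5-fold for 4160 (75.7%). Arrays of the strains did not overlap in 2734 probe sets (49.7%), with bna1Δ above in 1798 (32.7%) and below in 936 (17.0%). A difference of at least 2-fold with arrays apart was seen for 4 probe sets higher in bna1Δ (0.0728%), TNA1, YPR027C, SIR2 and ARO10, and for 23 lower (0.418%).

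**Figure D2:**
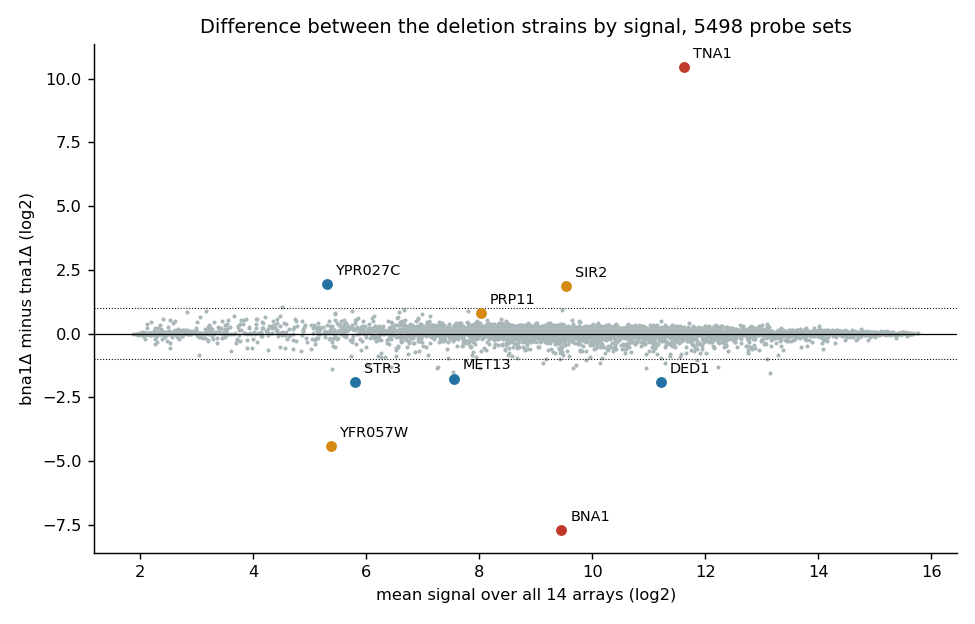
Difference between bna1Δ and tna1Δ (log2, vertical axis) against mean signal over all arrays (log2, horizontal axis), with 1 grey point for each of 5498 probe sets and dotted lines at 2-fold. TNA1 at 10.45 and BNA1 at -7.69 stand farthest out, followed by YFR057W at -4.39, and most points lie between the dotted lines.

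The remaining genes of the kynurenine route did not differ between the strains by as much as 2-fold. BNA2, tryptophan 2,3-dioxygenase and the first step of the route, read 5.48 and 5.30 in bna1Δ, 5.65 and 5.34 in tna1Δ, and 5.38, 5.56, 5.21 and 5.25 in wild type. All these arrays overlapped, and the difference was -0.10 ± 0.15 with an interval from -0.44 to 0.23. BNA7, the kynurenine formamidase, differed by 0.12 (-0.06 to 0.31). BNA4, kynurenine 3-monooxygenase, read 10.17 and 10.02 in bna1Δ, 9.95 and 9.75 in tna1Δ, and 10.10, 9.97, 9.80 and 9.90 in wild type. Its difference of 0.25 (0.02 to 0.47) had an unadjusted p of 0.0344 and an adjusted p of 0.756. BNA5, the kynureninase, which produces the substrate of Bna1, differed by 0.04 (-0.17 to 0.26). BNA6, quinolinate phosphoribosyltransferase, the step after Bna1, differed by 0.11 (-0.10 to 0.32). So 5 of 5 other route genes had intervals inside 2-fold, beside 93.3% of all probe sets. None passed the test, beside 0.0364% of all probe sets. The median of these genes relative to the wild-type mean was 0.03 and 0.08 on the bna1Δ arrays, -0.03 and -0.02 on the tna1Δ arrays, against 1.97 and 1.86 in npt1Δ and 2.20 and 2.26 with nicotinamide.

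The salvage enzymes were likewise close. NPT1, nicotinate phosphoribosyltransferase, which acts on the imported nicotinic acid, read 12.44 and 12.53 in bna1Δ, 12.33 and 12.34 in tna1Δ, and 12.36, 12.34, 12.54 and 12.34 in wild type. The difference of 0.15 (-0.02 to 0.32) did not pass. PNC1, the nicotinamidase that yields nicotinic acid from nicotinamide, read 11.93 and 12.11 in bna1Δ and 12.01 and 11.88 in tna1Δ, with overlapping arrays and a difference of 0.08 (-0.35 to 0.50). NMA1 and NMA2, the enzymes that adenylate the mononucleotide, differed by -0.12 (-0.52 to 0.28) and 0.06 (-0.25 to 0.38), and QNS1, the glutamine-dependent NAD+ synthetase at the end of both routes, by 0.06 (-0.14 to 0.26).

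None of the genes for the uptake and use of nicotinamide riboside passed the test. NRT1, the nicotinamide riboside transporter, read 7.92 and 7.84 in bna1Δ, 8.20 and 8.33 in tna1Δ, and 8.09, 8.10, 7.86 and 8.10 in wild type. The bna1Δ arrays lay below the tna1Δ arrays by 0.39 in the mean (difference -0.39, interval -0.60 to -0.18), at an unadjusted p of 0.00187 and an adjusted p of 0.756, and wild type lay between them except for its lowest array. NRK1, the riboside kinase, differed by 0.27 (-0.15 to 0.68), PNP1, the purine nucleoside phosphorylase, by 0.20 (0.00 to 0.39) and URH1, the nucleosidase, by -0.05 (-0.20 to 0.09). Of the 21 measured genes of salvage, vitamin uptake and shared NAD+ steps, 1 passed, TNA1 itself. Intervals inside 2-fold were found for 19, beside 93.3% of all probe sets. The exceptions were TNA1 and YEF1, an NAD kinase, at 0.32 (-0.54 to 1.18). The mitochondrial NAD+ carrier genes YIA6 and YEA6 differed by -0.24 (-0.53 to 0.06) and 0.01 (-0.12 to 0.15).

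**Figure D3:**
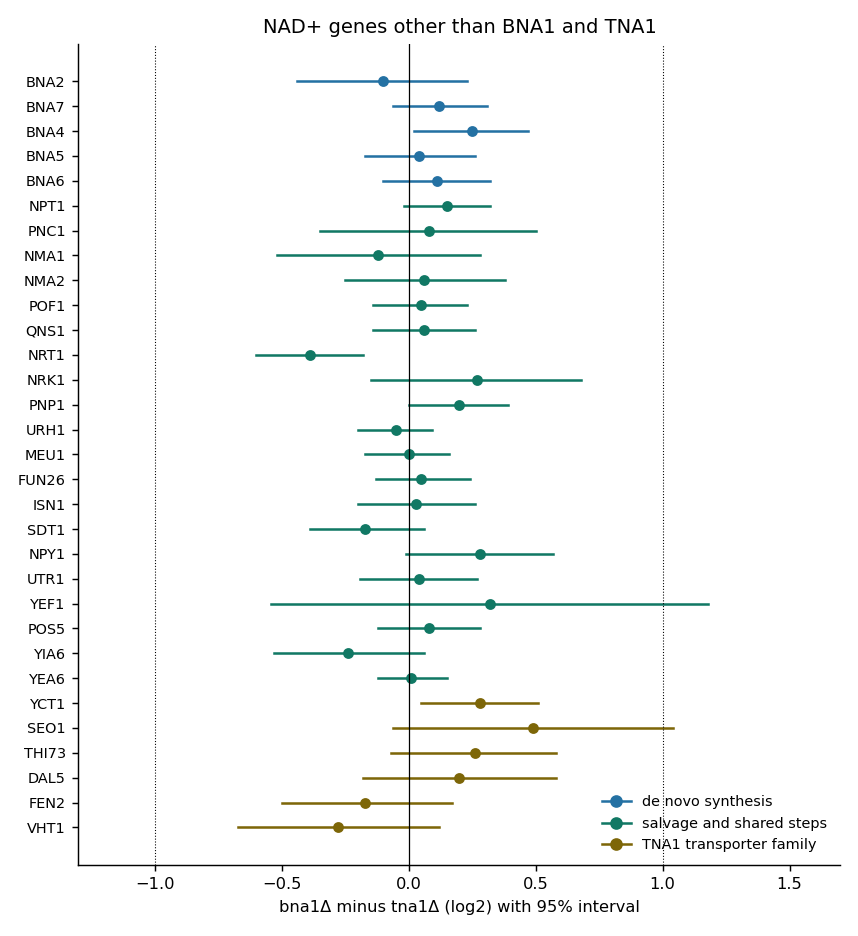
Differences between bna1Δ and tna1Δ (log2, horizontal axis) for 31 genes of NAD+ metabolism and the TNA1 transporter family, BNA1 and TNA1 left out, with points for the estimate, bars for the 95% interval and dotted lines at 2-fold. All intervals but those of YEF1 and SEO1 lie inside the dotted lines.

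Other permeases of the family to which Tna1 belongs were compared as possible companions of the importer. YCT1, a cysteine transporter, read 8.10 and 7.99 in bna1Δ, 7.89 and 7.64 in tna1Δ, and 8.03, 7.96, 8.11 and 7.88 in wild type, a difference of 0.28 (0.05 to 0.51, adjusted p = 0.756). SEO1, a putative permease, read 3.51 and 3.63 in bna1Δ and 3.58 and 2.57 in tna1Δ, so its difference of 0.49 (-0.06 to 1.04) came from the second tna1Δ array. Without the first tna1Δ array SEO1 was called at 0.999 (adjusted p = 0.0351), and without the second it differed by -0.01. THI73 differed by 0.26, DAL5, the allantoate permease, by 0.20, FEN2, the pantothenate permease, by -0.17 and VHT1, the biotin permease, by -0.28. Of the 7 measured family members TNA1 alone passed the test, and 5 of the others had intervals inside 2-fold, beside 93.3% of all probe sets.

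YFR057W, SIR2 and PRP11 separated the strains widely relative to their own replicates but also separated the wild-type pairs, and they were singled out after their values were seen. YFR057W is the outermost measured gene on the right arm of chromosome VI and is known as a target of Sir-dependent silencing. It read 2.15 and 2.25 in bna1Δ, both below background, 6.64 and 6.54 in tna1Δ, 2.20 and 2.15 in the ML8 wild type and 6.94 and 6.58 in the ML1 wild type. The transcript was thus at least 20.2-fold lower in bna1Δ than in tna1Δ and at least 22.8-fold lower in ML8 than in ML1. Elsewhere in the series it read 6.19 and 6.14 in npt1Δ, 6.43 and 6.54 in pnc1Δ and 7.29 and 7.29 with nicotinamide, so it was below background on the bna1Δ and ML8 arrays alone.

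SIR2, which encodes the NAD+-dependent histone deacetylase of silent chromatin, read 10.45 and 10.21 in bna1Δ, 8.67 and 8.21 in tna1Δ, 10.35 and 10.36 in ML8 and 8.96 and 8.65 in ML1. Its signal was 3.70-fold higher in bna1Δ than in tna1Δ (difference 1.89), and 2.93-fold higher in ML8 than in ML1. The other groups read 10.40 and 10.20 in npt1Δ, 9.11 and 8.67 in pnc1Δ, and 9.65 and 9.69 with nicotinamide. PRP11, a splicing factor gene next to SIR2, read 8.46 and 8.40 in bna1Δ, 7.68 and 7.53 in tna1Δ, 8.38 and 8.38 in ML8 and 7.77 and 7.54 in ML1. The difference was 0.82 between the deletion strains and 0.73 between the wild-type pairs. No array of bna1Δ overlapped one of tna1Δ, and no array of ML8 one of ML1, in any of the 3 genes. Between bna1Δ and tna1Δ the arrays did not overlap in 49.7% of all probe sets.

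Whether these genes passed depended on how the wild-type arrays entered the fit. With the 4 wild-type arrays as 1 group, the standard errors were 1.45 for YFR057W, 0.52 for SIR2 and 0.25 for PRP11, and the adjusted p was 0.756 for each. With ML8 and ML1 as separate groups the standard errors were 0.11, 0.19 and 0.09, and 5 probe sets passed (0.0909%), 3 higher (0.0546%) and 2 lower (0.0364%). These were TNA1, BNA1, YFR057W (adjusted p = 2.1e-08), SIR2 (0.00408) and PRP11 (0.00711). In that fit 4 probe sets passed between ML8 and ML1 (0.0728%), namely YFR057W lower in ML8 (4.31e-08), SIR2 and PRP11 higher (0.0248 each) and YER137C. Without the first bna1Δ array, the fit with separate pairs gave 0.0783 for SIR2 and 0.133 for PRP11, and PRP11 also missed without the second bna1Δ array (0.0664) or the second tna1Δ array (0.0983). YFR057W passed in each of these fits.

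**Figure D4:**
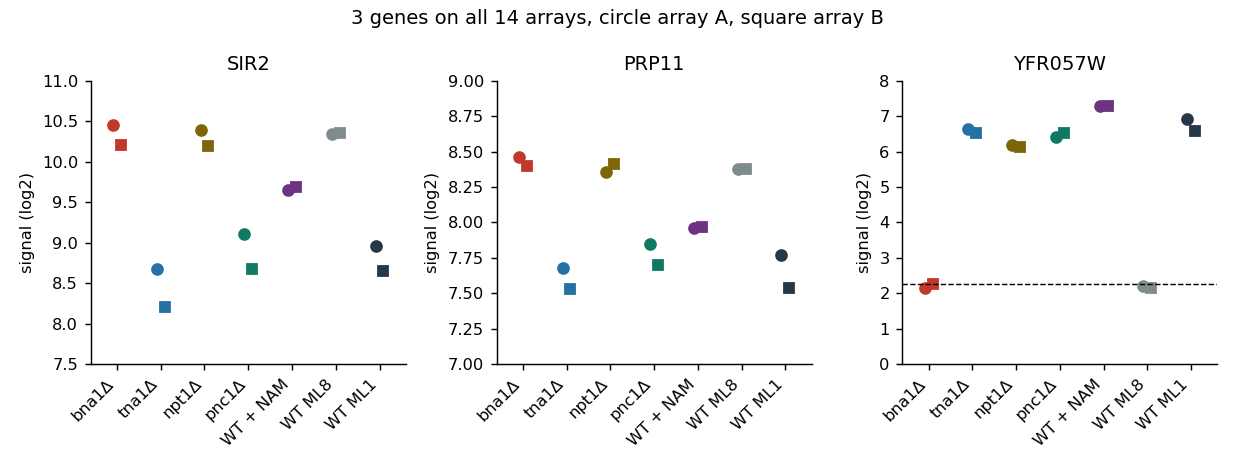
Signal (log2) of SIR2, PRP11 and YFR057W on all 14 arrays, with 1 point an array, the groups in columns and the highest background limit as a dashed line for YFR057W. For each gene the bna1Δ points lie near those of ML8 and the tna1Δ points near those of ML1.

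None of the other measured genes around these 3 passed the test in either fit. On the far side of PRP11, MTF2, FAD1 and MRP10 differed by 0.10, 0.11 and 0.01, and on the other side of SIR2, NAT1, PUS9 and GPR1 differed by 0.10, 0.14 and 0.07. PRM7, 2 genes from SIR2, read 10.61 and 8.51 in bna1Δ and 10.35 and 7.74 in tna1Δ, a split between replicates rather than strains. NPC2, the fifth measured gene from SIR2, differed by -0.75 (adjusted p = 0.756). Inward of YFR057W, IRC7, a gene for a cysteine desulphhydrase, differed by -0.78, HXK1, a hexokinase gene, by -0.15 and RPN12, a proteasome subunit gene, by -0.01. The ML8 and ML1 arrays share none with the deletion strains, so the pair differences can be set side by side. Of 27 probe sets at least 2-fold apart between bna1Δ and tna1Δ and 62 between ML8 and ML1, SIR2 and YFR057W were in both in the same direction (7.41% and 3.23%). At a difference of at least 0.5 there were 202 and 318, with 5 in both in the same direction. These were PRP11, SIR2, YFR057W and the shared-design probe sets of YEL076C and YEL076C-A. They were 2.48% of the probe sets apart between the deletion strains and 1.57% of those apart between the wild-type pairs. Probe sets apart in opposite directions are not in these counts, such as DED1 (-1.89 between the deletion strains, 2.46 for ML8 minus ML1) and MET13 (-1.76 and 1.77). Over all probe sets but BNA1 and TNA1, the differences ran opposite ways, with a correlation of -0.61 across probe sets.

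The 12 measured sirtuins and partners had a median difference of 0.10, and apart from SIR2 all had intervals inside 2-fold. Among the 235 measured genes within the 10 outermost of a chromosome end, the median difference was 0.03, and all others than YFR057W lay between -0.96 and 0.89. At an unadjusted p under 0.05, 11 of them were higher (4.68%) and 9 lower (3.83%), against 4.26% and 1.64% among all probe sets. The 8 measured subtelomeric COS genes, of near-identical sequence, had a median of 0.11 with 8 intervals inside 2-fold. The 13 measured seripauperin genes had a median of 0.00 with all 13 inside. Among all probe sets 93.3% had intervals inside 2-fold.

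Genes of sulphate assimilation and methionine synthesis were on the whole lower in bna1Δ, although none passed the test. Their list had a median difference of -0.29 over 27 measured genes, beside 0.049 over all probe sets. At an unadjusted p under 0.05, 6 of the 27 were lower and 0 higher, against 1.64% lower and 4.26% higher among all probe sets. The bna1Δ arrays were below the tna1Δ arrays in 15 of 27 and above in 3, against 17.0% and 32.7% among all. Relative to the mean of wild type, the median of the list was -0.27 and -0.32 on the bna1Δ arrays, 0.04 and -0.08 on the tna1Δ arrays, and 0.09, 0.02, 0.00 and -0.08 on the wild-type arrays. Both bna1Δ arrays were thus below every other array of the series in this median, npt1Δ and pnc1Δ lying between -0.11 and 0.00 and nicotinamide at 0.59 and 0.58. All strains carry met15D0, so none makes homocysteine by the usual sulphhydrylase.

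The members with the lowest unadjusted p in the list were SUL2 and MET5, of sulphate transport and sulphite reduction. SUL2, a high-affinity sulphate permease gene, read 7.23 and 7.34 in bna1Δ, 8.20 and 7.76 in tna1Δ, and 8.38, 8.12, 8.04 and 7.88 in wild type. No bna1Δ array reached the lowest tna1Δ or wild-type array, and the difference was -0.70 (-1.12 to -0.27, unadjusted p = 0.00444, adjusted p = 0.756). MET5, a sulphite reductase subunit gene, read 11.66 and 11.56 in bna1Δ, 11.98 and 11.89 in tna1Δ, and 11.98, 12.11, 11.90 and 11.85 in wild type, a difference of -0.32 (-0.55 to -0.10). MET10, the gene of the other subunit, differed by -0.33 (-0.63 to -0.02). MHT1, an S-methylmethionine-homocysteine methyltransferase gene, differed by -0.29 (-0.57 to -0.01). STR3, the cystathionine beta-lyase gene, read 3.81 and 4.27 in bna1Δ, 6.72 and 5.13 in tna1Δ, and 6.50, 5.65, 4.01 and 5.79 in wild type, and the wild-type arrays covered the second array of each strain but not the first. The first step from sulphate, MET3, differed by -0.45 ± 0.21 (adjusted p = 0.756), and CYS3, cystathionine gamma-lyase, by 0.02. Against wild type, 11 of the 27 were lower in bna1Δ and 2 in tna1Δ at an unadjusted p under 0.05, where 1.05% and 2.55% of all probe sets were, and none passed in either.

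Iron uptake genes had a median nearer to 0 than the sulphur genes, and none passed the test. Over 25 measured genes the median was -0.08, with the bna1Δ arrays below the tna1Δ arrays in 9 and above in 1, against 17.0% and 32.7% among all probe sets. At an unadjusted p under 0.05, 3 of the 25 were lower and 0 higher, against 1.64% and 4.26% among all. Against wild type, 9 of the 25 were lower in bna1Δ and 3 in tna1Δ at that threshold, where 1.05% and 2.55% of all probe sets were, and none passed in either. TIS11, an mRNA-binding regulator of iron genes, read 9.92 and 9.72 in bna1Δ, 10.49 and 10.53 in tna1Δ, and 10.60, 10.43, 10.24 and 10.43 in wild type, a difference of -0.69 (-1.21 to -0.16). FET3, the multicopper ferroxidase gene, and FTR1, the gene of its permease partner, differed by -0.47 (-0.84 to -0.10) and -0.30 (-0.57 to -0.03). Each had an adjusted p of 0.756. The list median relative to wild type was -0.22 and -0.19 on the bna1Δ arrays and -0.09 and -0.12 on the tna1Δ arrays, but pnc1Δ was at -0.21 and -0.27.

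Of the 23 probe sets at least 2-fold lower in bna1Δ with arrays apart, 21 remained after BNA1 and YFR057W were set aside, and they were chosen on this difference, so their values are a description. They included DED1, a DEAD-box helicase gene of translation initiation, DBP1, its paralogue, DHH1, a helicase gene of mRNA decay, HAC1, the transcription factor gene of the unfolded protein response, HCM1, a forkhead factor gene of S phase, HEM3 of haem synthesis, and STR3 and MET13 of methionine synthesis. DED1 read 10.39 and 10.19 in bna1Δ, 12.07 and 12.29 in tna1Δ, and 12.54, 11.24, 8.42 and 10.44 in wild type. The strains stood apart, but the wild-type arrays spanned more than the gap between them. MET13, the methylenetetrahydrofolate reductase gene, read 6.70 and 6.20 in bna1Δ, 8.18 and 8.24 in tna1Δ, and 8.57, 7.52, 5.61 and 6.94 in wild type, and HAC1 read 11.77 and 11.48 in bna1Δ, 12.98 and 12.86 in tna1Δ, and 13.24, 12.21, 9.99 and 11.45 in wild type.

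In 20 of the 21 the wild-type arrays spanned more than 2-fold, with a median range of 2.49 against 0.31 over all probe sets. The lowest wild-type array was ML1 array A in 19 and the highest ML8 array A in 21. Both bna1Δ arrays lay inside the wild-type range in 17 and both tna1Δ arrays in 18. The median of the group relative to the wild-type mean was -0.27 and -0.47 in bna1Δ, 0.96 and 0.86 in tna1Δ, 1.14 and 0.24 in ML8 and -1.29 and -0.12 in ML1. It was 0.90 and 0.37 in npt1Δ, 0.84 and 0.52 in pnc1Δ, and 0.51 and -0.50 with nicotinamide. The differences between the deletion strains reached -1.89, with a lowest unadjusted p of 0.00387, that of SNA2, and a lowest adjusted p of 0.756. What moves with these genes across replicate cultures was not tested.

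**Figure D5:**
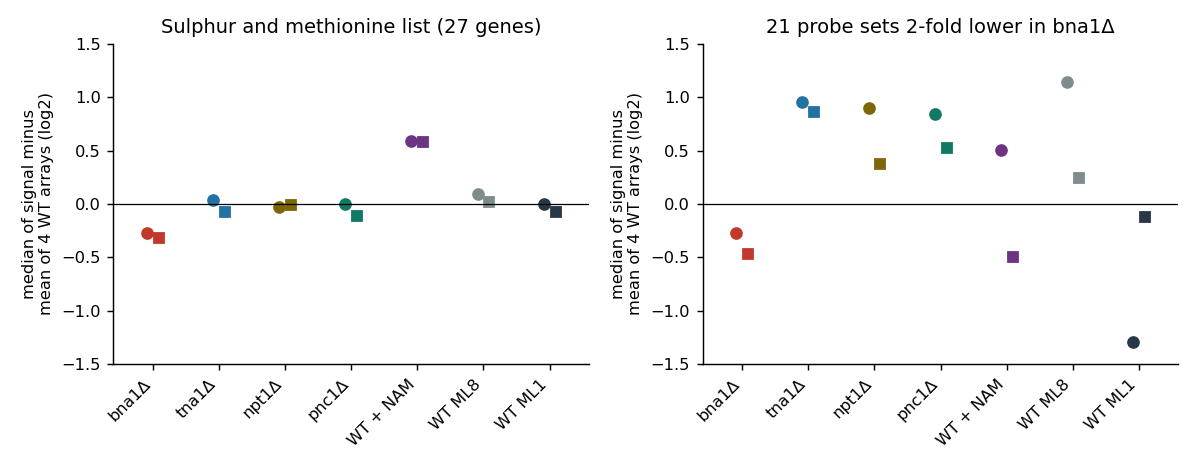
Median over a group of genes of the signal minus the mean of the 4 wild-type arrays (log2, vertical axis) on each array, circles for array A and squares for array B, for 27 sulphur and methionine genes (left) and for 21 probe sets at least 2-fold lower in bna1Δ (right). On the left the bna1Δ arrays, at -0.27 and -0.32, are the lowest, and on the right ML1 array A, at -1.29, is lower than both bna1Δ arrays.

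Beyond TNA1, the probe sets higher in bna1Δ with the smallest p and arrays apart were of mixed function, and none passed (adjusted p from 0.449 to 0.756). MER1, a meiosis-specific splicing regulator gene, read 3.43 and 3.51 in bna1Δ, 2.67 and 2.60 in tna1Δ, and 2.59, 2.82, 2.92 and 2.60 in wild type. Its signal was low everywhere, and bna1Δ stood above every tna1Δ and wild-type array by 0.84 over tna1Δ (0.50 to 1.17). HES1, an oxysterol-binding protein gene, read 6.42 and 6.40 in bna1Δ, 5.75 and 5.37 in tna1Δ, and 6.46, 6.24, 6.22 and 5.97 in wild type, so tna1Δ was the strain away from the rest. SVS1, a cell wall gene, read 13.49 and 13.45 in bna1Δ, 13.26 and 13.17 in tna1Δ, and 13.15, 13.10, 13.15 and 13.20 in wild type. With bna1Δ above all of these, the difference was 0.25 (0.13 to 0.38). COX7, a cytochrome oxidase subunit gene, differed by 0.40, CBP2, a mitochondrial splicing gene, by 0.27, PDR10, an ABC transporter gene, by 0.50 and HOS4, a Set3 complex subunit gene, by 0.44. SPO75 of meiosis differed by 0.91, BTS1, geranylgeranyl diphosphate synthase, by 0.41, the mannoprotein gene DAN4 by 0.59 and the methyltransferase gene CRG1 by 0.51.

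ARO10 and YPR027C, the other probe sets at least 2-fold higher, were chosen after their values were seen. ARO10, the phenylpyruvate decarboxylase of aromatic amino acid breakdown, read 5.00 and 5.31 in bna1Δ, 4.07 and 4.11 in tna1Δ, and 3.67, 4.15, 5.55 and 4.73 in wild type. YPR027C read 6.67 and 6.53 in bna1Δ, 5.20 and 4.13 in tna1Δ, and 4.85, 5.24, 7.17 and 5.89 in wild type. The wild-type arrays covered the range of both strains in ARO10, and in YPR027C they covered all but the second tna1Δ array. ARO10 was the 1 gene of 17 in the tryptophan and shikimate list at an unadjusted p under 0.05, where 5.89% of all probe sets were. The list median was 0.03. TRP5, the last step of tryptophan synthesis, was at 14.38 and 14.33 in bna1Δ and 14.38 and 14.35 in tna1Δ.

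On the lower side, GGC1, the mitochondrial guanine nucleotide carrier gene, had the smallest p after BNA1. It read 12.59 and 12.61 in bna1Δ, 12.88 and 12.94 in tna1Δ, and 12.87, 12.78, 12.81 and 12.83 in wild type, a difference of -0.31 (-0.44 to -0.17, adjusted p = 0.697). PCL5, a cyclin gene whose product marks Gcn4 for breakdown, read 9.52 and 9.44 in bna1Δ, 10.22 and 9.87 in tna1Δ, and 10.03, 9.73, 9.89 and 9.87 in wild type. The bna1Δ arrays lay below all of these, and the difference was -0.56 (-0.84 to -0.28, adjusted p = 0.697). IRC7 read 10.78 and 10.68 in bna1Δ, 11.51 and 11.50 in tna1Δ, and 11.25, 10.95, 10.79 and 11.36 in wild type, with bna1Δ at the low end of wild type and tna1Δ above it. YIR042C differed by -0.33, ERI1 of GPI anchor synthesis by -0.40 and SNA2 by -1.02. YLL066W-B gave -0.96 and -0.88 on 2 probe sets and YPL277C gave -0.41, all on probe sets of a design shared with near-identical genes. Their probe sets of unshared design read -0.48 for YLL066W-B and 0.03 for YPL277C, so which copy differed is uncertain.

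General amino acid control, the regulon of Gcn4, had a median of -0.03 over 34 measured genes. In 12 of these the bna1Δ arrays were below the tna1Δ arrays and in 3 above, against 17.0% and 32.7% among all probe sets. PCL5 and ILV6, an acetolactate synthase subunit gene at -0.20, were its 2 genes at an unadjusted p under 0.05. They were lower, as were 1.64% of all probe sets at that threshold. The 38 middle sporulation genes had a median of 0.01. SPR6 at 0.28, SMK1 at 0.54 and GAS2 at 0.47 were higher at an unadjusted p under 0.05, as were 4.26% of all probe sets. The median of the sporulation list relative to wild type was 0.01 on both bna1Δ arrays and 0.00 on both tna1Δ arrays. It was 1.13 and 1.21 in npt1Δ and 1.79 and 1.95 with nicotinamide.

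Gene groups tied to growth, energy and mating were nearly level between the strains in their medians. Median differences were 0.01 for 20 ribosomal protein genes, 0.10 for 26 of ribosome biogenesis, 0.07 for 20 heat shock chaperones, 0.05 for 35 genes raised in stress, 0.00 for 32 of the respiratory chain and 0.05 for 31 NAD-dependent dehydrogenases. All 20 ribosomal protein and all 26 ribosome biogenesis genes had intervals inside 2-fold. Of all probe sets 93.3% had such intervals. The share was lower for respiratory chain genes (27 of 32), hexose transporters (14 of 18), multidrug transporters (13 of 18) and pheromone targets (15 of 20). Respiratory chain members ran from COX9 at -0.95 to COX7 at 0.40, and multidrug transporters from PDR12 at -0.75 to PDR10 at 0.50. The pathway lists lay at 0.12 for thiamine (18 genes), 0.09 for vitamin B6 (6), 0.08 for purines (19), 0.05 for ergosterol (22), -0.02 for inositol and phospholipids (16), 0.04 for phosphate starvation (19), 0.05 for zinc (11) and -0.05 for allantoin and nitrogen catabolism (25). Hexose transporters (18) and galactose and maltose genes (11) were at 0.00, multidrug transporters (18) at 0.04, and cell wall mannoproteins (18) at -0.04. Daughter-cell separation (11) was at 0.02, the DNA damage response (17) at 0.02, core histones (9) at 0.07 and cyclins (14) at 0.10. Pheromone targets (20) were at 0.08 and haploid-specific genes (13) at 0.13. None of these groups held a called gene, and in each at most 3 members were higher and at most 2 lower at an unadjusted p under 0.05. Among all probe sets 4.26% were higher and 1.64% lower at that threshold. The largest counts were above those shares: 3 higher of 22 ergosterol genes and of 35 raised in stress, and 2 lower of 25 allantoin and nitrogen genes.

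Alpha-specific genes (4) were at 0.00 and a-specific genes (7) at -0.02, with no member at an unadjusted p under 0.05. None of the 7 a-specific genes had an interval inside 2-fold. STE2 read 11.72 and 9.26 with nicotinamide against 14.56 to 14.70 on the bna1Δ, tna1Δ and wild-type arrays, and the fit shares its estimate of spread over all groups.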

How the data were processed

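Total RNA of 14 cultures was measured on Affymetrix Yeast 2.0 arrays. The deposited values are log2 signals that the authors computed with GCRMA, per the submitters' processing notes (version not given in the sources used here). They were used as deposited. Of 10928 probe sets, 5498 matched 1 gene each of the R64 reference (5449 genes), which served only for names and gene order, and 128 of these are of shared design. limma 3.58.1 (lmFit and eBayes, under R 4.3.3) was fitted to all 14 arrays in 6 groups, the 4 wild-type arrays as 1 group, with 8 residual degrees of freedom. P values were adjusted by Benjamini-Hochberg over all 5498 probe sets, and a probe set was called at an adjusted p under 0.05, without a minimum fold or a filter on dim signals. A fold against a group below the background limit was computed against the limit. A gene with several probe sets is given by the one with the highest mean signal.

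The arrays compared, the 39 gene lists (647 of 681 genes measured) and the alternatives were chosen with earlier results of these data known, and the lists come from textbook knowledge. Named genes are the deleted genes and their neighbours, marker genes, all measured NAD+ genes and Tna1 relatives, up to 12 probe sets a direction with the smallest p and arrays apart, and called or highest-signal list members. Any other gene was picked with its values in view, which holds also for list members picked by their unadjusted p. The series describes the arrays as duplicate cultures, and with 2 a strain the number of arrays limits precision. The scripts were tested on simulated data.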

Additional observations from a re-analysis of the deposited data

Results flagged for a closer look

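One reporter control probe set of the array, among 47 that match no yeast gene, was outside every comparison above. It read between 15.29 and 15.37 (mean 15.32, log2) on the 8 arrays of the deletion strains, bna1Δ and tna1Δ included, and between 1.94 and 2.02 (mean 1.99) on the 6 arrays of wild type with or without nicotinamide. The labels give kanMX4 to the deletion strains alone, and the sources used here do not name the sequence of this probe set.

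In 11 of 172 named probe sets 1 of the 4 wild-type arrays lay outside the rest by Dixon's 95% limit, which chance exceeds in about 1 of 20 groups, or about 9 here. The array was ML1 A in 8 of them. It was low in CAR1 (13.86, against a median of 14.15 on the others), CYS3 (14.25 against 14.34), GAL80 (10.83 against 11.07), NRT1 (7.86 against 8.10) and TRP5 (14.25 against 14.39). It was high in NPT1 (12.54 against 12.34), PDR5 (15.23 against 15.10) and SMK1 (5.75 against 5.34). ML8 B was low in BNA5 (10.23 against 10.46) and high in HSC82 (14.65 against 14.55), and ML1 B was high in PNP1 (12.01 against 11.82).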

How the results depend on the processing

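BNA1 and TNA1 were called between the strains in all 25 alternatives, at -7.77 to -7.60 and 10.35 to 10.55. The count of 2 rose to 5 with the wild-type pairs as separate groups and to 5 with no wild-type array in the fit. It was 5 with separate pairs combined with quantile normalization, with array median centring or without ML1 array A. Leaving out 1 array of bna1Δ or tna1Δ gave 2 to 5, and 3 to 7 with separate pairs. YFR057W was called in 11 alternatives, SIR2 in 9 and PRP11 in 7. Each of those fits had the wild-type pairs as separate groups or held no wild-type array. Most were the fit with separate pairs repeated with another change, so the counts largely reflect that 1 choice. No alternative with the wild-type arrays as 1 group called YFR057W, SIR2 or PRP11. Over all 25 alternatives the differences of these genes ran from -4.44 to -4.34, 1.66 to 2.12 and 0.74 to 0.90. Without the first tna1Δ array CRC1, SEO1 and SPO21 were called, at differences of -0.549, 0.999 and 1.329, and without the second YBL008W-A, at -0.55. Each of these fits left 1 tna1Δ array. PRR2 was called once, with separate pairs and without the second bna1Δ array.

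Against wild type, bna1Δ gave 1 call, 2 with separate pairs or with ML1 alone, 2 with a variance trend, without moderation or over all probe sets (SVS1 added), and 4 with ML8 alone. The tna1Δ strain gave 1, 2 with separate pairs, 6 with ML8 alone, and 2 to 5 without 1 of its arrays. The replicate block left 2 calls between the strains and 1 in each against wild type, and with separate pairs gave 6, with PUT1. Differences between arrays A and B correlated over 0.1 in 17 of 21 pairs of groups (-0.232 to 0.593, and 0.534 for bna1Δ with tna1Δ), and the labels do not say that a letter marks a shared batch or day. Each group enters several of these correlations, so they are not independent, and ML1 ran the other way with ML8 (-0.215) and with nicotinamide (-0.232). Whether a letter marks a shared effect was not tested, and the letters were not taken as pairs. No call was lost and none reversed. Of 4296 values of named probe sets, 36 became calls and 130 changed sign with no call in either. The cause of these changes was not tested.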
